A study of Homo sapiens with 4 samples.

Results

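The peaks described here were the SMAD1 peaks in 3 windows of chromosome 1 that cover the regions of its clusters of transfer RNA (tRNA) genes. A peak of either list belonged to the set when its midpoint, in human genome build hg19, lay in chr1:16500000-17500000 (the first window, 1 Mb), chr1:142500000-150000000 (the long window, 7.5 Mb) or chr1:161300000-161700000 (the last window, 0.4 Mb). The choice used position alone. It took 178 of 5203 peaks in untreated cells and 128 of 7682 peaks after BMP4, 306 of 12885 in all. These were 33.1% of the untreated and 17.0% of the BMP4 peaks of chromosome 1.

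The cells were H1, an established line of human embryonic stem cells (hESCs) kept in mTeSR1 medium on Matrigel, and SMAD1 was located by ChIP-seq, the sequencing of DNA that an antibody to the protein pulls down from fixed chromatin. They received no BMP4, or BMP4 at 50 ng/ml for 60 min, so that SMAD1 binding could be compared before and after the onset of the signal. The 4 samples were 1 SMAD1 ChIP and 1 input (chromatin without immunoprecipitation) per condition, and each ChIP had 1 peak list. No value below therefore has a replicate error, no difference between conditions could be tested, and the depth behind each list is unknown from the files.

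SMAD1 is a transcription factor that the BMP receptors phosphorylate, after which it enters the nucleus with SMAD4 and binds regulatory DNA. tRNA genes are short and are transcribed by RNA polymerase III from promoter elements inside the gene. On human chromosome 1 many of them lie in clusters, partly in duplicated sequence near the centromere, alongside U1 small nuclear RNA and histone genes. The authors judged enrichment at tRNA regions to be nonspecific and all peaks of the lists were kept here.

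RefSeq gives an idea of what the clusters hold, although it is on a later build than the peaks and no peak could be placed on a gene. Of its 84 tRNA genes on chromosome 1, 66 fell in 3 runs of at least 8 genes with neighbours no more than 2 Mb apart. In chromosome order, the run of 8 (TRN-GTT5-1 to TRN-GTT4-1) held 4 glycine, 2 asparagine and 2 glutamate tRNA genes. The run of 26 (TRQ-CTG4-2 to TRN-GTT8-1) was led by 11 asparagine, 5 glutamine and 4 histidine tRNA genes. The run of 32 (TRV-CAC1-1 to TRL-CAA6-1) held 1 block of 5 genes, for glycine, aspartate, leucine, glycine and glutamate, 4 times in a row. The label of the windows as tRNA clusters could not be checked in hg19, and hg19 sequence was not used here.

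All 3 windows were crowded in both lists. The untreated list held 29 peaks in the first window, 137 in the long window and 12 in the last, and the BMP4 list held 24, 93 and 11. In untreated cells this was 29 peaks per Mb in the first window (95% exact Poisson interval 19.4 to 41.7), 18.3 in the long window (15.3 to 21.6) and 30 in the last (15.5 to 52.4). The rest of chromosome 1, taken as the 240.3 Mb between its outermost peaks that lie outside the windows, held 1.49 per Mb (1.34 to 1.66). After BMP4 the densities were 24.0 (15.4 to 35.7), 12.4 (10.0 to 15.2) and 27.5 (13.7 to 49.2) per Mb, against 2.60 (2.40 to 2.81) in the rest. These intervals and those that follow are at 95%, cover counting error only and treat peaks as independent, which neighbouring peaks need not be.

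Set against the rest of the chromosome, the untreated density was 19.4-fold higher in the first window (12.8 to 28.4), 12.2-fold in the long window (9.97 to 14.9) and 20.1-fold in the last (10.3 to 35.5). After BMP4 the ratios were 9.23 (5.87 to 13.9), 4.77 (3.79 to 5.94) and 10.6 (5.25 to 19.1). Over the 3 windows together they were 13.4 (11.1 to 16.1) in untreated cells and 5.53 (4.54 to 6.70) after BMP4. When chromosome 1 was divided into bins of 1 Mb, the windows supplied most peaks of all 10 densest untreated bins and of 8 of the 10 densest BMP4 bins. The region of chromosome 6 from 26 to 29 Mb, which holds another cluster of tRNA and histone genes, was denser still, with 45.7 untreated and 49.7 BMP4 peaks per Mb.

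**Figure D1:**
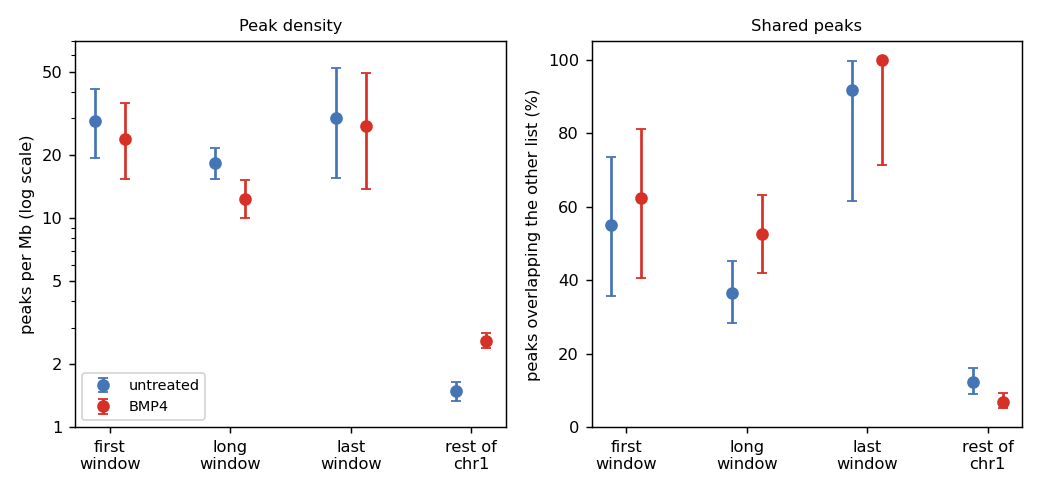
Peaks per Mb (left, log axis) and percent of peaks with 1 bp or more in common with the other list (right) for each of the 3 windows and the rest of chromosome 1, with 95% exact intervals as error bars. All 3 windows lie above the rest of the chromosome in both panels and both lists.

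After BMP4 the windows held fewer peaks, and the rest of the chromosome more. The windows held 0.719 BMP4 peaks for each untreated peak (0.568 to 0.908), whereas the rest of chromosome 1 held 1.74 (1.53 to 1.99), the whole lists 1.48 and the chromosome 6 region 1.09 (0.857 to 1.38). By window the ratio was 0.828 in the first (0.461 to 1.47), 0.679 in the long window (0.516 to 0.890) and 0.917 in the last (0.367 to 2.27). These ratios compare 1 list with 1 list of another length, and their intervals say nothing of the spread between cultures. Both lists are also many times longer than the peak numbers in the study's methods, where the BMP4 number is the smaller one. The score of a peak, read as 10 times the −log10 of the p-value that the authors' peak caller gave it, rises with depth and peak width. Below a score of 100 the windows held 101 untreated and 52 BMP4 peaks. At a score of at least 100 they held 77 and 76, a ratio of 0.987 (0.709 to 1.37), beside 1.46 (1.06 to 2.03) in the rest of chromosome 1, and the whole lists held 1110 and 1555. At a score of at least 1000 they held 24 and 39, a ratio of 1.62 (0.953 to 2.83), and the whole lists held 230 and 321.

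**Figure D2:**
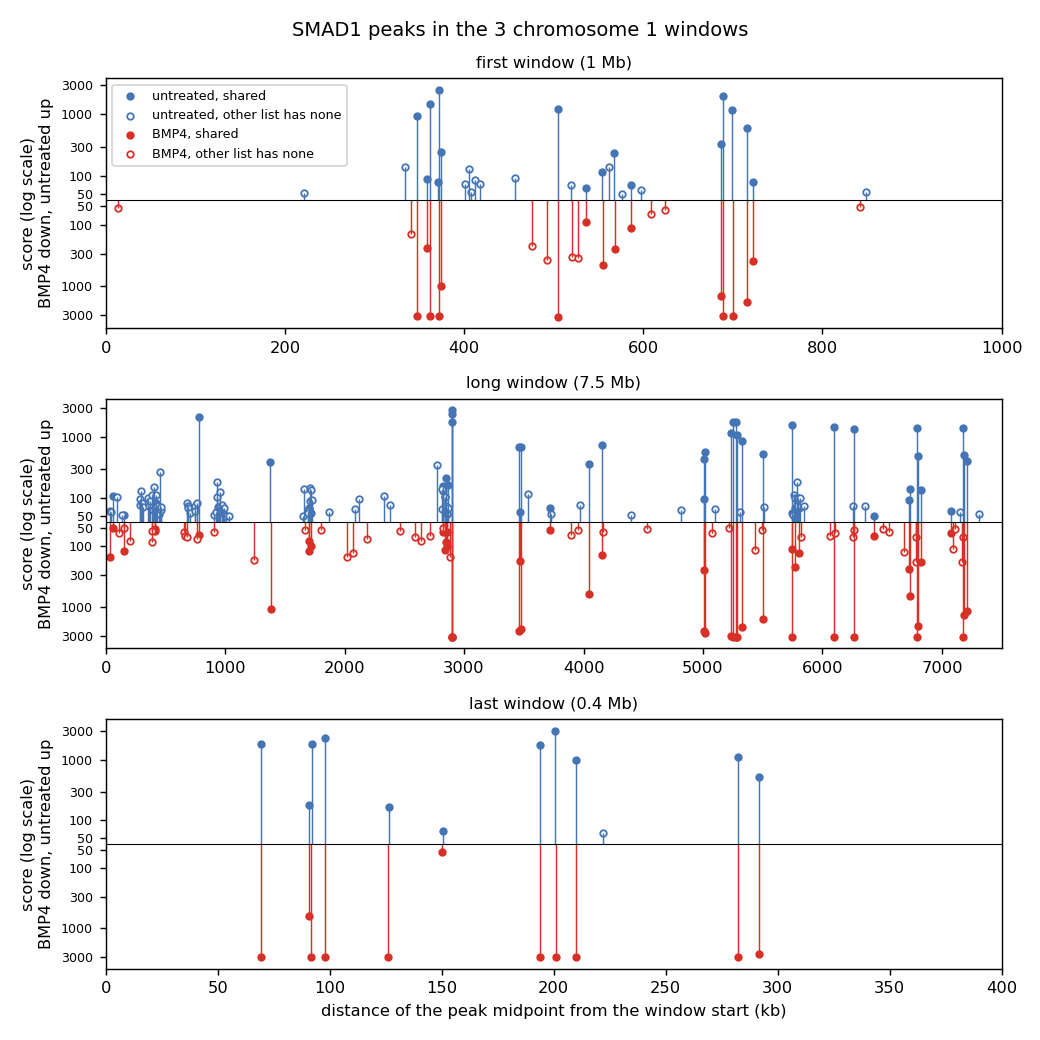
Position (distance from the start of each window in kb), score (log axis) and list of every peak in the 3 windows, with untreated peaks drawn upwards and BMP4 peaks downwards. Filled and open symbols separate peaks that overlap the other list from those that do not, and the high scores in all windows belong to overlapping peaks.

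Peaks in the windows followed each other closely. The median distance between midpoints of neighbouring untreated peaks was 10.5 kb in the first window (quartiles 5.64 and 17.2), 9.82 kb in the long window (4.33 and 40.2) and 12.1 kb in the last (8.07 and 26.3). In the rest of chromosome 1 it was 316.8 kb (92.9 and 822). After BMP4 the medians were 13.4, 27.9 and 15.3 kb, against 202.5 kb in the rest. Of the untreated spacings in the windows, 88 of 175 were under 10 kb (50.3%), as were 39 of 125 after BMP4 (31.2%). In the rest of the chromosome 9.52% and 6.10% were that short. The chromosome 6 region had shorter median distances than any of the windows, at 7.71 kb in untreated cells and 7.30 kb after BMP4.

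Peaks in the windows were also broader than in the rest of chromosome 1. Their median width was 1252 bp in untreated cells and 1311 bp after BMP4, against 665 bp (651 to 697) and 659 bp (646 to 678) in the rest. In the chromosome 6 region the medians were 1103 bp (1087 to 1120) and 1166 bp (1144 to 1181). The first window had the broadest peaks, with medians of 2215 bp (1486 to 3206) and 2323 bp (1449 to 4558). There, 16 of 29 peaks were wider than 2000 bp without treatment (55.2%) and 14 of 24 after BMP4 (58.3%), compared with 3.90% and 1.76% in the rest. The long window had medians of 1224 and 1234 bp, and the last window of 1152 and 1224 bp. Weak peaks showed the same difference. Below a score of 100 the median width was 1168 bp in the windows (1051 to 1302) and 640 bp in the rest (626 to 652) of the untreated list, and 1099 bp (916 to 1349) and 628 bp (618 to 645) in the BMP4 list. As a result of number and width, untreated peaks covered 7.92% of the first window, 2.70% of the long window and 11.6% of the last, against 0.146% of the rest. The BMP4 peaks covered 7.07%, 1.76% and 11.7%, against 0.225%.

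More of these peaks were found in both lists than elsewhere on the chromosome. Peaks are called shared here if 1 bp or more lay inside a peak listed for the other condition. In the windows 77 of 178 untreated peaks were shared (43.3%, exact binomial interval 35.9 to 50.9), as were 75 of 128 BMP4 peaks (58.6%, 49.6 to 67.2). Over the whole lists the shared percentage was 18.3 in untreated cells and 12.7 after BMP4, and in the rest of chromosome 1 12.3% (9.05 to 16.1) and 7.04% (5.16 to 9.34). The first window shared 16 of 29 in untreated cells (55.2%, 35.7 to 73.6) and 15 of 24 after BMP4 (62.5%, 40.6 to 81.2). The long window shared 50 of 137 (36.5%, 28.4 to 45.2) and 49 of 93 (52.7%, 42.1 to 63.1). In the last window 11 of 12 (91.7%, 61.5 to 99.8) and 11 of 11 (100%, 71.5 to 100) were.

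Strong peaks were shared more often than weak ones in both lists. Untreated peaks of the windows with scores from 50 to 60 were shared in 5 of 32 cases (15.6%), those from 60 to 100 in 26.1%, those from 100 to 300 in 37.1% and those from 300 to 1000 in 17 of 18 cases (94.4%). The BMP4 peaks in these bands were shared in 7 of 27 cases (25.9%), 24.0%, 60.7% and 6 of 9 cases (66.7%). All 24 untreated and all 39 BMP4 peaks with scores of at least 1000 had a partner, as did the 9 and 7 such peaks in the rest of chromosome 1. Over the whole lists these bands, from the weakest up, were shared in 4.20%, 11.0%, 39.3%, 82.9% and 98.7% of untreated peaks. The same bands of the BMP4 list were shared in 3.66%, 7.48%, 21.9%, 53.9% and 97.2%. The top band and the untreated band from 100 to 300 of the windows were thus near the general share. In the band from 300 to 1000 the intervals of the windows, 72.7 to 99.9 untreated and 29.9 to 92.5 after BMP4, included the general share. In the weakest band the rest of the chromosome shared 4.14% (1.68 to 8.35) without treatment and 1.10% (0.228 to 3.19) after BMP4. The intervals of the windows there were 5.28 to 32.8 and 11.1 to 46.3, so the untreated ones overlap those of the rest. Peaks covered 3.68% and 2.80% of the windows against 0.146% and 0.225% of the rest. How far this crowding alone raises the overlap of weak peaks was not tested. No peak without a partner exceeded a score of 340.6 in untreated cells or 373.6 after BMP4 within the windows.

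Scores were higher in the windows than in the rest of the chromosome. The median score was 86.7 in untreated cells (74.3 to 101) and 134 after BMP4 (101 to 225), compared with 61.0 (59.4 to 62.9) and 62.1 (60.7 to 64.3) in the rest of chromosome 1. The last window had the highest medians, at 1052 (164 to 1851) and 3100 (640 to 3100). The first window had 90.9 (73.2 to 247) and 363 (139 to 1822), and the long window 76.0 (71.4 to 94.1) and 101 (71.4 to 128). Scores of at least 100 were reached by 43.3% of untreated and 59.4% of BMP4 peaks in the windows, beside 21.3% and 20.2% over the whole lists. Scores of at least 1000 were reached by 13.5% (8.83 to 19.4) and 30.5% (22.7 to 39.2), beside 4.42% and 4.18%. The windows thus held 24 of the 33 untreated peaks and 39 of the 46 BMP4 peaks of chromosome 1 at that level. Many top peaks share a score of 3100, so scores there carry little order. At or above it the windows held 1 untreated and 25 BMP4 peaks (0.562% and 19.5%). The whole lists held 33 and 228 (0.634% and 2.97%) and the chromosome 6 region 7 and 86, so the rise after BMP4 was not particular to the windows. Among peaks under 3100 alone, the median score of the windows was 85.9 in untreated cells (73.9 to 101) and 90.2 after BMP4 (71.4 to 123). This cut removed 25 BMP4 peaks but only 1 untreated peak. It lowered the BMP4 median by construction, so these 2 medians are not comparable with each other. On the same basis the untreated and BMP4 medians were 90.9 and 240.8 in the first window, 76.0 and 79.1 in the long window, and 989.1 and 640.2 in the last. In the last window 8 of 11 BMP4 peaks stood at or above 3100. Its BMP4 median under that score rests on the few other peaks and has no interval.

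Within overlapping pairs the BMP4 score was usually the higher one. A peak that overlapped 2 peaks of the other list entered 2 pairs, which gave 77 pairs in the windows. The BMP4 score was higher in 64 of them (83.1%, 72.9 to 90.7), the untreated score in 12, and 1 pair was equal. Over all pairs of the lists the BMP4 score was higher in 56.4%, and in the rest of chromosome 1 in 20 of 44 (45.5%, 30.4 to 61.2). The BMP4 score was higher in 16 of 16 pairs of the first window, 39 of 50 of the long window and 9 of 11 of the last. The median ratio of BMP4 to untreated score was 2.61, 1.97 and 1.71 in the 3 windows, 2.08 over all of them (quartiles 1.30 and 2.99), and 1.00 in the rest of the chromosome. The BMP4 score stood at or above 3100 in 7 of 16, 11 of 50 and 8 of 11 pairs of the 3 windows, and in 231 of 996 over all pairs. Scores pile up at 3100 and no BMP4 score of the list exceeded 3157.7. The ratios of these pairs are therefore limited, and the 3 medians are not comparable with each other. Over the 51 pairs with both scores under 3100, the BMP4 score was higher in 39 (76.5%, 62.5 to 87.2) and the median ratio was 2.32. With unequal or unknown depth a score ratio is not a fold enrichment, and the part of depth in the difference was not tested. The pairs lay close together, with a median distance of 71.5 bp between midpoints and 40 of 77 within 100 bp. This closeness was not particular to the windows. Over all pairs of the lists the median was 71.25 bp, with 587 of 996 within 100 bp. In the rest of chromosome 1 it was 64 bp, with 26 of 44. Among the 41 pairs of the windows with an untreated score of at least 300, 29 were within 100 bp and 38 had the higher score after BMP4. Among the 36 weaker pairs the numbers were 11 and 26.

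**Figure D3:**
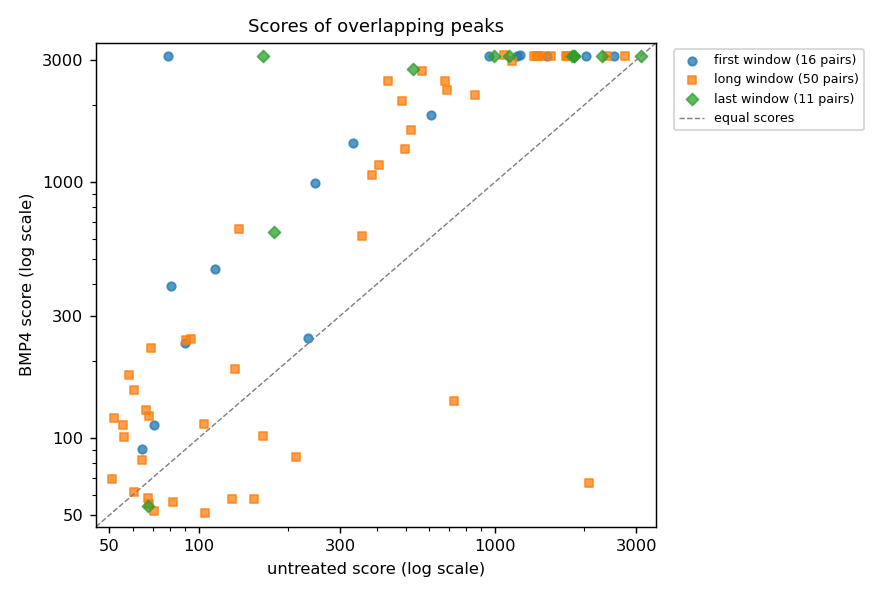
Untreated score (horizontal, log axis) against BMP4 score (vertical, log axis) of the 77 overlapping pairs, by window, with a line at equal scores. Of the pairs, 64 lie above the line, and BMP4 scores pile up at 3100.

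The first window held 7 groups when peaks of both lists no more than 20 kb apart were joined, and 3 of them held most of its peaks. The first of these, chr1:16832793-16874766, contained 7 untreated and 6 BMP4 peaks, of which 6 and 5 were shared. It included the highest untreated score of the window, at chr1:16871825-16872998 (2523). A single BMP4 peak at chr1:16870020-16873094 (3100) spanned both this peak and a weak untreated neighbour at chr1:16870157-16871606 (79.0). In the same group the untreated peak chr1:16860306-16864222 (1492) paired with chr1:16860154-16864711 (3100), and the BMP4 peak chr1:16846571-16847384 (3100) with an untreated peak of score 951. The strongest untreated peak without a partner, chr1:16832793-16835283 (139.9), opened the group.

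The largest group of the first window, chr1:16954740-17125754, spanned 171 kb and held 10 untreated and 11 BMP4 peaks, with 5 shared in each list. It contained the highest BMP4 score of the window at chr1:17004246-17005414 (3130), whose untreated partner scored 1211. Both BMP4 peaks with the highest scores and no partner lay there, chr1:16989562-16995040 (373.6), at 9.31 kb from the nearest untreated peak, and chr1:17026311-17028476 (352.7), at 6.33 kb. The widest untreated peak of the window, chr1:17058373-17064804 (6432 bp, score 137.7), also had no partner, but a BMP4 peak ended 349 bp away. Between these 2 groups lay chr1:16899715-16920319, with 5 untreated peaks and no BMP4 peak, all scoring 131 or less. The third large group, chr1:17186109-17223853, was the most alike in the 2 lists, with 5 peaks in each and all of them shared. It held the untreated peak chr1:17187881-17189073 (2023), whose partner scored 3100. The widest BMP4 peak of the window, chr1:16836974-16843564 (6591 bp, score 138.9), lay in the first of the large groups and had no partner.

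The long window was uneven along its length. Its peaks formed 60 groups, of which 27 were single peaks and 12 held more than 5 peaks, while 12 groups held only untreated and 16 only BMP4 peaks. The first 1.5 Mb, a border chosen after the values were seen, held 49 untreated peaks (32.7 per Mb) and 18 BMP4 peaks (12.0 per Mb). In this stretch 7 of 49 were shared in untreated cells (14.3%, 5.94 to 27.2) and 7 of 18 after BMP4 (38.9%, 17.3 to 64.3), and the median scores were 71.7 and 67.3. The remaining 6 Mb held 88 and 75 peaks (14.7 and 12.5 per Mb), of which 48.9% and 56.0% were shared. The group chr1:143404606-143529339 alone had 14 untreated peaks beside 1 BMP4 peak, none of them shared, and chr1:142854224-142967868 had 15 beside 4. The lower number of BMP4 peaks in the windows thus rested in part on this stretch. Without it the ratio of BMP4 to untreated peaks over the windows was 0.853 (0.655 to 1.11).

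**Figure D4:**
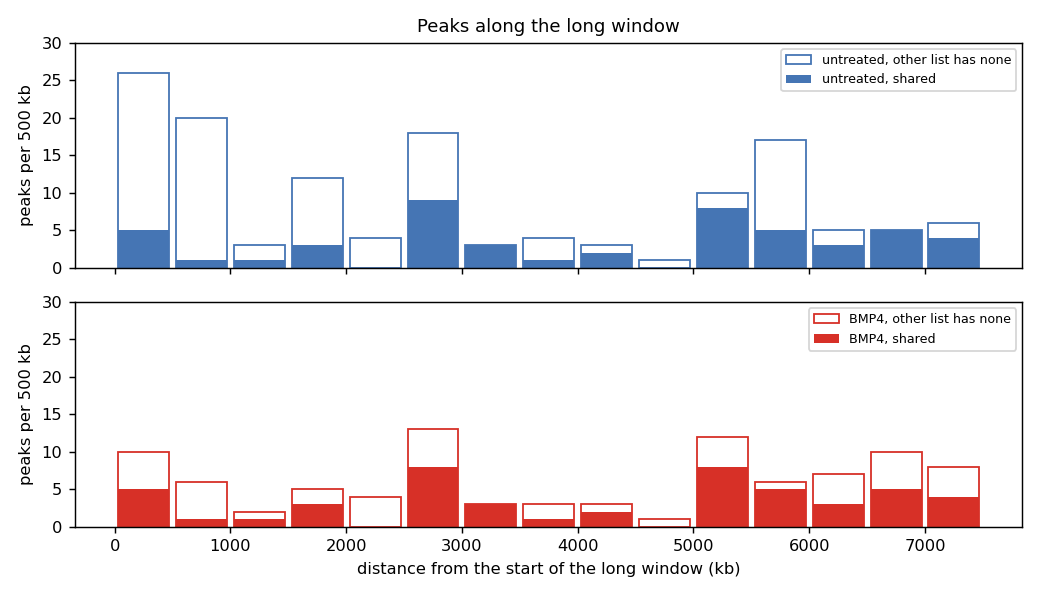
Number of untreated and BMP4 peaks in each 500-kb bin of the long window, by distance from its start in kb, with the shared peaks marked. The first 500-kb bin holds 26 untreated and 10 BMP4 peaks and the second 20 and 6, while the bin from 5000 to 5500 kb holds 10 and 12.

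Most peaks of the long window with scores of at least 1000 lay after the first 1.5 Mb, which held 1 of 13 in untreated cells and 1 of 22 after BMP4. The group chr1:145314510-145399880 was its largest, with 17 untreated and 10 BMP4 peaks, of which 9 and 8 were shared. At its end stood the highest pair of untreated scores of the window, chr1:145398682-145399864 (2743) and chr1:145394994-145396141 (2381), and the BMP4 peaks chr1:145394995-145396163 and chr1:145396303-145398523 (both 3100). The bin from 147.5 to 148 Mb held 10 untreated and 12 BMP4 peaks, with 8 shared in each list. There chr1:147780633-147781667 had the highest BMP4 score of the window (3129), against 1070 in untreated cells. The group chr1:148241304-148321908 had 14 untreated and 5 BMP4 peaks, with 4 shared in each. The strongest untreated peaks without a partner were chr1:145276828-145278064 (340.6), at 41.4 kb from any BMP4 peak, and chr1:142951146-142954929 (268.4), at 33.3 kb. The strongest such BMP4 peaks, chr1:149283883-149285081 (185.5) and chr1:149663939-149664992 (183.9), both lay towards the end of the window.

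Against the general direction, 11 of the 50 pairs of the long window scored higher in untreated cells. Of these, 5 lay in the group chr1:145314510-145399880, with untreated scores from 67.5 to 212.9 and BMP4 scores from 58.0 to 101. The largest such difference was at chr1:143278046-143284540, a peak of 6495 bp with a score of 2083 in untreated cells. Its BMP4 partner, chr1:143278118-143284683, had nearly the same borders and a width of 6566 bp, the widest BMP4 peak of the window, but a score of 66.8, a ratio of 0.0321. At chr1:146649589-146651578, singled out after its values were seen, the scores were 725.6 and 139.1. The widest untreated peak of the window, chr1:142535284-142543788 (8505 bp), was weak in both lists, with scores of 60.5 and 154.

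The last window was the smallest and the most alike between the lists. Strong narrow peaks stood at chr1:161391359-161392436 (1851 in untreated cells, 3100 after BMP4), chr1:161397323-161398481 (2297 and 3100) and chr1:161499691-161501484 (3100 in both). The BMP4 peaks chr1:161368883-161370115, chr1:161391313-161392471 and chr1:161397365-161398519 all scored 3100, and their untreated partners scored 1847, 1851 and 2297. The other pairs scored 180.1 and 640.2, 1816 and 3100, 989 and 3100, 1116 and 3100, and 526.9 and 2753 in the order untreated and BMP4. Only the pair at chr1:161450030-161450836 was higher in untreated cells, with scores of 67.2 and 54.3. The single peak without a partner was the untreated peak chr1:161521845-161522471, with a score of 60.1 and a distance of 11.1 kb to the nearest BMP4 peak.

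One peak of the last window differed from all others in width. It ran over chr1:161409550-161443275 in untreated cells (33726 bp, score 164.4) and over chr1:161409478-161442609 after BMP4 (33132 bp, score 3100). It ranked 2 by width in each list and made up 72.5% and 70.9% of the bases covered in the window. The other peaks of the window were 627 to 1794 bp wide in untreated cells and 586 to 2865 bp wide after BMP4. Without it the covered part of the window was 3.19% and 3.40%, still above the 0.146% and 0.225% of the rest of chromosome 1.

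The borders of the windows mostly fell in sparse sequence. Just inside and outside the start of the first window lay the BMP4 peaks chr1:16513367-16513956 (53.6) and chr1:16476459-16477041 (54.9), 13.7 kb and 23.3 kb from the border. At its end the nearest peaks were an untreated one 150.9 kb inside (53.7) and a BMP4 one 297.1 kb outside (201). The long window opened with a BMP4 peak 38.4 kb inside (154), after a stretch of 21.06 Mb without a peak in either list. At its end the nearest peaks lay 192.3 kb inside (53.3, untreated) and 131.4 kb outside (66.7, BMP4). The last window began with a BMP4 peak 69.5 kb inside (3100), with an untreated one 116.9 kb outside (143), and ended with an untreated peak 108.5 kb inside (526.9) and a BMP4 peak 36.1 kb outside (83.9).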

How the data were processed

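The authors fixed H1 hESCs in 1% formaldehyde for 10 min, sheared chromatin to 100 to 400 bp and immunoprecipitated SMAD1. By the study's methods, reads were aligned to hg19 with BWA 0.7.5a, replicates were merged, and peaks were called against input with MACS 1.4.2 at default settings. The treatment of reads that align to several copies of a repeat is not given in the sources used here. The lengths of the deposited lists differ from the peak numbers in the methods, so it is uncertain that they come from that run.

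Each deposited list holds the positions of peaks (chromosome, start and end) and the score the authors' peak caller gave. It was taken to be −log10 of a p-value times 10, from the format of the program and from the lowest score of 50 in both lists (p-value 1e-05). Its height depends on depth, which the lists do not give. The lists of the 2 ChIP samples were used, and the inputs were not analysed here on their own. All peaks were kept.

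Positions were made 1-based, and peaks were assigned to the windows by midpoint. Densities had exact Poisson intervals, ratios of densities and shares had exact binomial (Clopper-Pearson) intervals, and medians had order-statistic intervals. No statistical test was run between conditions. The counting steps were tested on simulated lists. The members and the lists used here were chosen with earlier results of these data known. Named peaks were, for each window and list, the 3 with the highest score, the 2 strongest without a partner, the widest, and those nearest each border. Alternatives were minimum scores of 100, other overlap rules, a shortened BMP4 list, width limits, joining of close peaks and other gaps for groups. The RefSeq table was of another build (GRCh38.p14), so it gave names and neighbours of tRNA genes and no coordinates. Python 3.11.15, numpy 2.4.6, pandas 2.3.3, scipy 1.17.1 and matplotlib 3.10.9 were used.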

Additional observations from a re-analysis of the deposited data

How the results depend on the processing

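With 1 list per condition, no replicate could be left out, and intervals do not cover variation between cultures. No paired analysis was possible because nothing was tested between the conditions, which have 1 list each. Of 43 main values recomputed under the alternatives, 11 moved and 0 reversed. Of 138 further values, 20 moved and 0 reversed. A count was taken to have moved when it changed by more than 1.5 times, and other values when they left their interval. At a score of at least 100 the windows held 77 untreated and 76 BMP4 peaks, and the density ratios over the rest of chromosome 1 were 31.0 and 20.9. Of those untreated peaks 63.6% were shared (51.9 to 74.3). The bands from 100 to 300, from 300 to 1000 and from 1000 up were shared in 37.1%, 94.4% and 100%. In the whole untreated list these bands were shared in 39.3%, 82.9% and 98.7%, so the excess of shared untreated peaks in the windows lay mainly below 100. At a score of at least 100, BMP4 peaks of the windows stood to untreated ones as 0.987 (0.709 to 1.37) and unshared ones as 0.964, against 0.719 and 0.525 over all peaks. With the BMP4 list shortened to the 5203 peaks of the highest score, its density ratio was 7.06 and the ratio of unshared peaks 0.368. Without the first 1.5 Mb of the long window, an alternative chosen after seeing the data, 54.3% of untreated peaks were shared, and the peak ratio was 0.853 (0.655 to 1.11). A gap of 5 kb in place of 20 kb gave 151 groups in place of 71.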

Other observations

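A triplet of shared peaks occurred at 2 places of the long window with nearly the same spacing, a pattern looked for after the data were seen. Runs of 3 neighbouring pairs, with each spacing under 30 kb, were compared with each other in the same and in reverse order. Of 308 combinations of 26 runs, 1 matched within 500 bp in both spacings of both lists. In the copy that starts at chr1:145962769 the untreated scores were 679.1, 58.1 and 690.7, and the BMP4 scores 2476, 176.8 and 2289. In the copy that starts at chr1:147504647 they were 433.7, 94.0 and 567.6, and 2487, 244.6 and 2717. The untreated midpoints lay 5.96 and 9.78 kb apart in the first copy and 6.04 and 9.68 kb in the second. The BMP4 midpoints were less alike, at 5.95 and 9.76 kb in the first copy and 5.67 and 10.04 kb in the second. In both copies a weak peak stood between 2 strong ones in each list, and the sequence of the copies was not compared.

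Outside the windows, chromosome 1 held 9 untreated and 7 BMP4 peaks with scores of at least 1000, all of them shared. One of these was wider than the broad peak of the last window, at chr1:228743802-228782711 (38910 bp), with a score of 1667 in untreated cells and 3100 after BMP4.

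In the chromosome 6 region from 26 to 29 Mb, the shared percentage was 95.6 in untreated cells and 88.6 after BMP4, and the median scores were 1199 and 3100, against 43.3% and 58.6% and medians of 86.7 and 134 in the 3 windows of chromosome 1.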
